A study of Mus musculus with 4 samples.

Results

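The genes of the cellular antioxidant defence and of the glutathione transferases were followed in mouse ventricular muscle with and without Trpc6, a calcium-permeable cation channel. A list of 47 genes was chosen by symbol, from the regulators of the pathway to the enzymes that detoxify peroxides and electrophiles, and 43 of them had a probe on the array. All 43 were kept among the 15955 genes tested, since each was above background on all 4 arrays. The genes without a probe under their symbol were Gpx1, Prdx5, Prdx6 and Gstp1.

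Ventricular muscle was taken from male mice of the strain 129SV, as 2 wild-type samples and 2 samples labelled as Trpc6 knockout. The samples carry no agent or transgene in the labels, and neither the deleted allele nor the age of the mice is given in the sources used here. Total RNA of each sample was amplified, labelled with Cy5 and hybridised to 1 Toray oligonucleotide array. The labels do not say whether the samples of a group came from separate animals, and every p-value below therefore rests on differences between hybridised samples that may be only technical.

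Muscle cells of the heart consume oxygen at a high rate, and their mitochondria and oxidases release superoxide and hydrogen peroxide. Superoxide dismutases turn superoxide into hydrogen peroxide, which catalase breaks down. The glutathione peroxidases and the peroxiredoxins reduce hydrogen peroxide to water, drawing on glutathione and thioredoxin. Glutathione transferases couple glutathione to lipid aldehydes and other electrophiles. Many of these genes are driven by the transcription factor NRF2, the product of Nfe2l2, which KEAP1 holds in check.

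The median intensity of gene probes was 95.5 to 106 units over the 4 arrays, not far above the blank spots, whose medians were 78.4 to 87.5 units. The probe of Trpc6 read 80.5 and 89.2 units in the wild type and 84.1 and 82.6 units in the knockout. It was not above the background limit on any array, so the targeted gene gave no check of the labels. All 8 cardiomyocyte markers were above background on all 4 arrays. The summed spot medians of 6 kept erythroid markers were 1477 units on wild-type array 1 and 3603, 3892 and 3907 units on wild-type array 2 and knockout arrays 1 and 2. Wild-type array 1 stood apart in this sum, and both knockout arrays were above both wild-type arrays. In the scanner headers the slope between the first and second gain was 0.504 and 0.519 for the wild-type arrays. It was 0.478 on both knockout arrays. Whether these slopes reflect a scanner setting is not known. Any effect of scanning that followed them could not be told apart from genotype. Values below are normalized log2 intensities in the order wild-type array 1, wild-type array 2, knockout array 1, knockout array 2, and differences are knockout minus wild type with the limma standard error.

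The transcripts of the antioxidant system differed little between the genotypes. As reported, all 43 group means differed by less than 1.5-fold, as did those of 15932 of the 15955 genes tested. That did not hold with local background subtracted, where Gpx4 differed by -2.10 and Txnrd1 by 0.81 on the log2 scale. The 4 genes with an unadjusted p under 0.05 were glutathione transferases, whereas the lowest difference of the list, -0.40 ± 0.21, was that of Txnip, with overlapping groups. Gstm2, a cytosolic transferase of the Mu class, was lower in the knockout by 0.34 ± 0.04 on the log2 scale. This is 21.0% less of the background-corrected and normalized intensity, which includes an offset of 50 added in the correction. Percent differences of intensity given below are on the same scale. Mgst1 and Gsta4 were lower by 0.26 and 0.21, and Gstm5, another Mu-class gene, was higher by 0.19. No gene on the arrays passed an adjusted p of 0.05 in limma with Benjamini-Hochberg adjustment over all genes (0% of 15955, smallest adjusted p 0.369), and no gene of the antioxidant list did. An unadjusted p under 0.05 was reached by 1076 genes (6.74% of those tested), and by 4 of the 43 listed genes (9.30%).

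By direction, 3 of the listed genes were lower at that threshold (Gstm2, Mgst1, Gsta4), against 3.08% of all genes, and 1 was higher (Gstm5), against 3.67% of all genes. These splits depended on scaling: of all genes at that threshold 45.6% were lower as reported and 63.0% were with arrays scaled to a common median, where 6 listed genes reached it, all lower (Gsta4, Gstm1, Gstm2, Gstt2, Mgst1 and Sod3). As reported, the 4 genes made up 30.8% of the 13 transferases measured, while none of the other 30 genes reached that threshold. The difference between those shares was not tested, since the list was drawn up with results of these arrays known. The shares also depend on the threshold, since Gstm5 had an unadjusted limma p of 0.0496 and 5 listed genes lay just above 0.05. These were Cat (0.0540), Hmox2 (0.0545), Sod3 (0.0545) and the transferases Gstm1 (0.0557) and Gstt2 (0.0592). The groups did not overlap in 15 of the 43 genes (34.9%), a share near the 36.8% of all genes. Of these, 9 were lower in the knockout (17.4% of all genes were) and 6 were higher (19.4% of all genes). Among the 43 genes 24 were higher and 19 lower (17 and 26 with median scaling), and their median difference was 0.0071, against 0.0017 over all genes. The median size of the difference was 0.085 among the listed genes and 0.043 among all genes tested. These sets were not matched for intensity, and the processing shrinks differences of dim probes. In 32 of the 43 genes the gap between replicate arrays of at least 1 group was larger than the difference between the groups. No such count over all genes is given here, so whether this share is unusual was not tested.

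**Figure D1:**
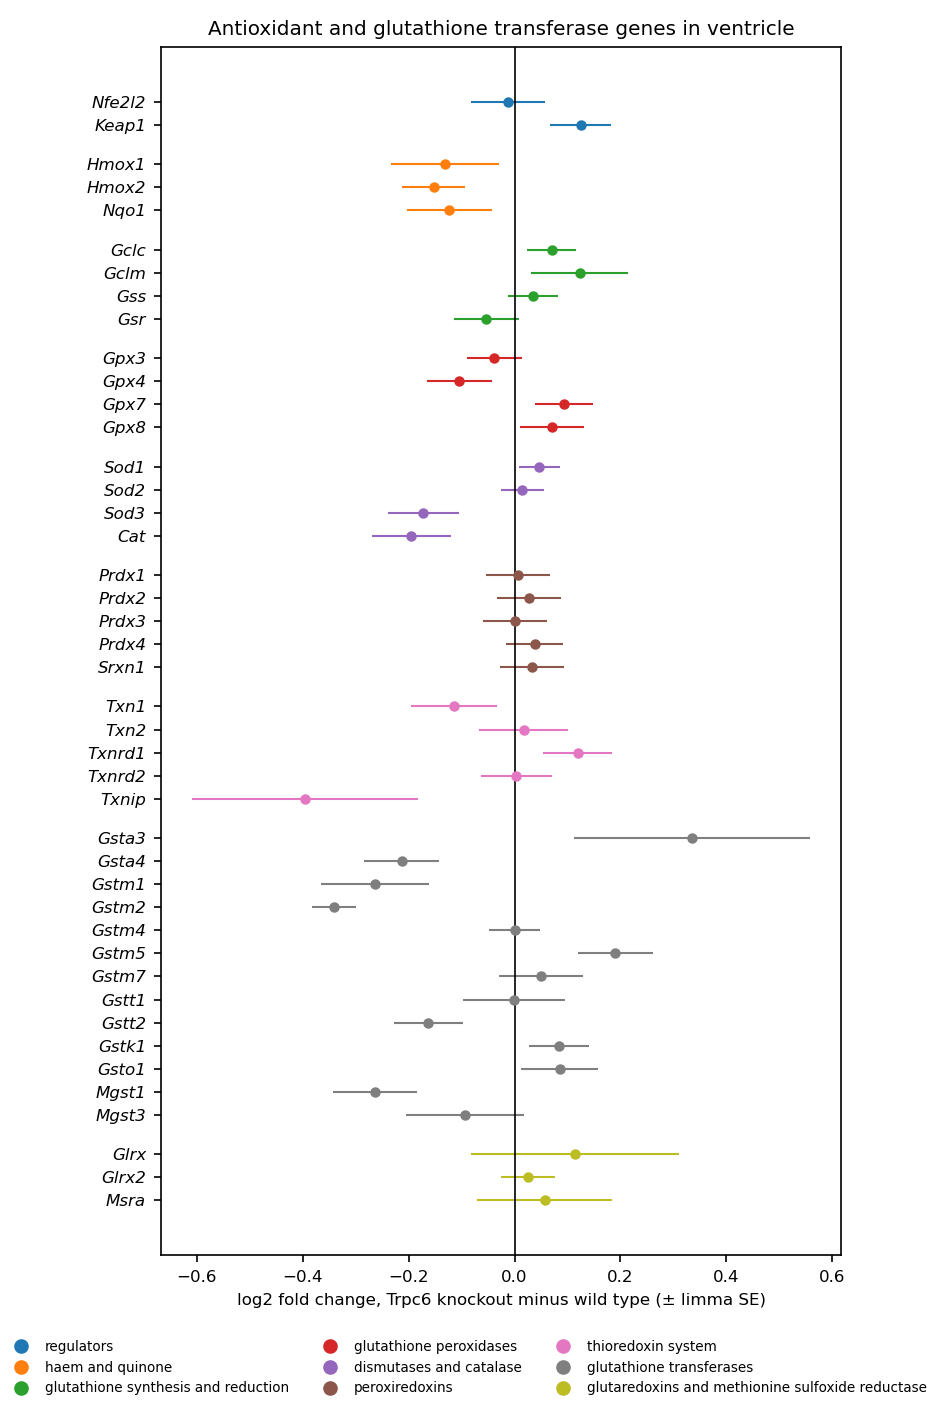
Difference in log2 intensity between Trpc6 knockout and wild type (horizontal axis) for each of the 43 measured genes, grouped by role, with 2 arrays per group; points are differences of group means and bars are ± 1 limma standard error. Most points lie near 0, Gstm2 lies farthest from 0 relative to its bar, and Txnip and Gsta3 have the widest bars.

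The regulators were read first, because NRF2 sits upstream of most of the list. Nfe2l2 read 7.63, 7.75, 7.75 and 7.61, a difference of -0.01 ± 0.07 (adjusted p = 0.988). The wild-type and knockout arrays covered the same span. Keap1, the adaptor that delivers NRF2 to a ubiquitin ligase, read 7.11, 7.17, 7.20 and 7.32. Both knockout arrays were above both wild-type arrays, by a mean of 0.13 ± 0.06 (adjusted p = 0.773). With local background subtracted the Keap1 difference turned to -0.14.

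Classical NRF2 targets of haem and quinone metabolism did not pass the test. Hmox1, the inducible haem oxygenase, read 6.65, 6.93, 6.63 and 6.68, and its difference of -0.13 ± 0.10 (adjusted p = 0.856) rested on wild-type array 2, without which it was 0.0080. Nqo1, a quinone reductase, read 7.77, 7.78, 7.55 and 7.76. Knockout array 1 was low and knockout array 2 lay just under the wild type, and without knockout array 1 the difference shrank from -0.12 to -0.014. With local background subtracted the Nqo1 difference turned to 0.50. Hmox2, the constitutive haem oxygenase, read 9.07, 9.19, 9.01 and 8.95. The knockout arrays both lay below the wild type, by 0.15 ± 0.06 (adjusted p = 0.748). The sign was kept in all 16 alternative settings, several of which could not turn it.

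Glutathione is made by glutamate-cysteine ligase, whose catalytic and modifier subunits are encoded by Gclc and Gclm. Gclc read 6.85, 6.81, 6.93 and 6.86, a difference of 0.07 ± 0.05 (adjusted p = 0.818) without overlap of the groups. Gclm read 7.37, 7.61, 7.62 and 7.60, and wild-type array 1 alone was low. Without that array the Gclm difference went from 0.12 ± 0.09 to -0.0010. Gss, the synthetase of the second step, differed by 0.035 ± 0.05, and Gsr, the reductase that regenerates glutathione, by -0.05 ± 0.06. The smallest adjusted p among the genes of glutathione synthesis and reduction was 0.818.

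Among the glutathione peroxidases, Gpx3, the secreted plasma form, read 8.30, 8.41, 8.33 and 8.30, a difference of -0.04 ± 0.05 (adjusted p = 0.925). Its groups overlapped. Gpx4, which reduces phospholipid hydroperoxides, differed by -0.10 ± 0.06, but its probe is annotated to a non-coding transcript record of the gene. Subtracting local background moved the Gpx4 difference to -2.10. Gpx7 and Gpx8, members resident in the endoplasmic reticulum, differed by 0.09 ± 0.06 and 0.07 ± 0.06, Gpx7 without overlap of the groups. The smallest adjusted p of the family was 0.801.

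The superoxide dismutases work in different compartments. Sod1, the copper-zinc enzyme of the cytosol, was higher by 0.05 ± 0.04 without overlap of the groups (adjusted p = 0.865). Sod2, the manganese enzyme of the mitochondrial matrix, read 13.14, 13.15, 13.18 and 13.14. The 4 arrays lay within a narrow span and the difference was 0.015 ± 0.04 (adjusted p = 0.965), with a sign that turned under both other scalings. The Sod1 and Sod2 differences widened to 0.39 and 0.63 with local background subtracted. Sod3, the extracellular enzyme, read 6.49, 6.58, 6.43 and 6.30. Both knockout arrays were below both wild-type arrays, by 0.17 ± 0.07 (adjusted p = 0.748), at a probe whose lowest spot was only 1.27 times the background limit. In the authors' deposited table Sod3 stood at 36.3 and 37.4 in the wild type and 28.7 and 25.2 in the knockout, a ratio of 0.731. With local background subtracted the Sod3 difference turned to 0.19.

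Catalase (Cat), which breaks down hydrogen peroxide in peroxisomes, read 8.87, 9.01, 8.68 and 8.81. Each knockout array was below each wild-type array, by 0.19 ± 0.08 (adjusted p = 0.747). The sign of the Cat difference was kept in all 16 alternatives, which gave -0.36 to -0.12, though several of them could not turn it.

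The summed intensity of fibroblast markers was lower in the same samples as these genes. The 5 fibroblast markers summed to 4168 and 4405 units in the wild type and 3564 and 2983 units in the knockout, and all 5 were above background on every array. Decorin (Dcn), a matrix proteoglycan, was lower by 0.47 ± 0.13 (adjusted p = 0.727), and it carried the lower sum, since Col1a1, Col1a2, Lum and Pdgfra differed by 0.05, 0.04, -0.05 and -0.03. Other marker sums also separated the groups. The erythroid sum given above was higher in both knockout arrays. Hba-a2, Hbb-bs, Hbb-bt and Hbb-b2 differed by 1.03, 0.98, 0.94 and 0.89, Alas2 by 0.13 and Epb42 by -0.08. The 5 endothelial markers summed to 1023 and 1095 units in the wild type and 963 and 990 in the knockout. Cdh5, Emcn, Kdr, Pecam1 and Tie1 differed by -0.05, 0.01, -0.07, 0.06 and -0.15. The 5 neutrophil markers summed to 586 and 692 units in the wild type and 537 and 499 in the knockout. Ly6g differed by -0.75, while S100a8, S100a9, Camp and Ngp differed by 0.023, -0.075, -0.016 and -0.02. Camp and Ngp were above background on only 2 arrays. The 3 atrial markers summed to 3475 and 3746 units against 4343 and 6158. Nppa differed by 0.64, while Myl4 differed by -0.45 and Myl7 by 0. The part of these markers in the values of Sod3 and Cat, and of the transferases below, was not tested. In bulk muscle, fewer cells of a type and less RNA per cell cannot be told apart.

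The peroxiredoxins, which reduce hydrogen peroxide with thioredoxin as the donor, differed least. Prdx1 and Prdx2 of the cytosol, Prdx3 of mitochondria, Prdx4 of the secretory pathway and Srxn1, the sulfiredoxin that repairs over-oxidised peroxiredoxins, differed by 0.0010 to 0.04, each with an adjusted p of at least 0.927. The direction was not stable, since Prdx1, Prdx2, Prdx3 and Prdx4 turned sign when arrays were scaled to a common median. Prdx2 is abundant in red blood cells. It read 11.88, 11.87, 11.97 and 11.83. The erythroid sum was low on wild-type array 1 and higher on both knockout arrays than on both wild-type arrays. The part of blood in the values of Prdx2 was not tested.

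In the thioredoxin system, Txn1 and Txn2, the cytosolic and mitochondrial thioredoxins, differed by -0.11 ± 0.08 and 0.02 ± 0.08. Their reductases were measured as Txnrd1 and Txnrd2. Txnrd1 read 7.73, 7.58, 7.75 and 7.81, higher in both knockout arrays by a mean of 0.12 ± 0.07 (adjusted p = 0.789). Wild-type array 2 was the low one, and without it the difference was 0.04. Subtracting local background moved the Txnrd1 difference to 0.81. Txnrd2 differed by 0.0030 ± 0.07.

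Txnip, which binds and inhibits thioredoxin and responds to glucose, had the lowest difference of the list and one of the widest errors. It read 10.65, 11.25, 10.66 and 10.46, a difference of -0.40 ± 0.21 (adjusted p = 0.785). Wild-type array 2 was high, and wild-type array 1 was level with knockout array 1, so that the groups overlapped. Without wild-type array 2 the difference was -0.096, and without wild-type array 1 it was -0.70.

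The glutaredoxins Glrx and Glrx2 and the methionine sulfoxide reductase Msra differed by 0.11 ± 0.20, 0.03 ± 0.05 and 0.06 ± 0.13. All groups overlapped. For Glrx and Msra the spread between replicates was wider than the difference, with 8.80 and 8.24 on the wild-type arrays for Glrx.

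**Figure D2:**
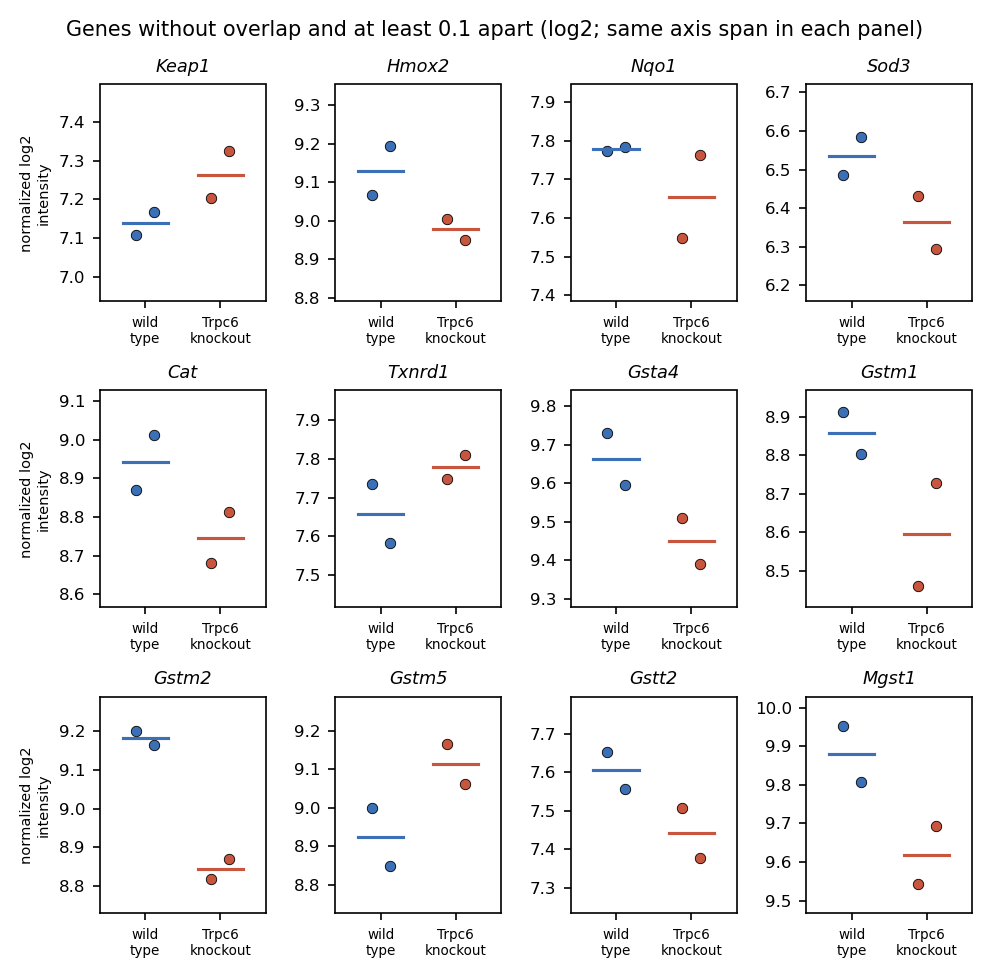
Normalized log2 intensity (vertical axes, same span in each panel) on the 2 wild-type and 2 Trpc6 knockout arrays for the 12 genes whose groups did not overlap and differed by at least 0.1; points are arrays and lines are group means. The gap between the groups is widest relative to the replicates for Gstm2, at 9.20 and 9.17 against 8.82 and 8.87.

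The cytosolic glutathione transferases fall into classes by sequence. Of the 13 transferases measured, 5 were higher and 8 lower in the knockout, with a median of -0.0011 and a median size of 0.16. The groups did not overlap in 6 of the 13 (46.2%, against 36.8% of all genes), of which 5 were lower.

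In the Alpha class, Gsta4, which conjugates the lipid peroxidation product 4-hydroxynonenal, read 9.73, 9.59, 9.51 and 9.39. Both knockout arrays were below both wild-type arrays, by 0.21 ± 0.07 (adjusted p = 0.727), or 13.7%. The Gsta4 difference was -0.15 both without wild-type array 1 and without knockout array 2, and its unadjusted p was then no longer under 0.05. Gsta3 read 7.36, 7.92, 7.80 and 8.15. Its difference of 0.34 ± 0.22 (adjusted p = 0.818) rested on wild-type array 1, the low array, without which it was 0.056.

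The membrane-bound Mgst1, a transferase and peroxidase of the endoplasmic reticulum and outer mitochondrial membrane, read 9.95, 9.81, 9.54 and 9.69. The groups were apart, with the knockout lower by 0.26 ± 0.08 (adjusted p = 0.727), or 16.7%. The Mgst1 difference was -0.19 both without wild-type array 1 and without knockout array 1, and its unadjusted p was then no longer under 0.05. With local background subtracted the Mgst1 difference turned to 0.47, with an unadjusted p under 0.05. In the authors' deposited table the Mgst1 groups overlapped, with 903 and 734 in the wild type and 639 and 761 in the knockout. Mgst3, its relative, differed by -0.09 ± 0.11 (adjusted p = 0.906).

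Of the remaining classes, Gstt2 (Theta) read 7.65, 7.56, 7.51 and 7.38. Both knockout arrays were below both wild-type arrays, by 0.16 ± 0.06 (adjusted p = 0.754). Gstt1 differed by -0.0010 ± 0.10. Gstk1 (Kappa, mitochondrial and peroxisomal) and Gsto1 (Omega) differed by 0.08 ± 0.06 and 0.08 ± 0.07, with overlapping groups.

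The Mu-class genes lie side by side on mouse chromosome 3, in the order Gstm5, Gstm7, Gstm6, Gstm3, Gstm2, Gstm1 and Gstm4 in the GRCm38.p6 gene table. They are close paralogs, and the probe sequences were not used here, so signal from 1 gene on the probe of another was not tested. Gstm2 read 9.20, 9.17, 8.82 and 8.87. The replicates lay within 0.05 of each other in both genotypes and the groups were far apart, by 0.34 ± 0.04 (rank 12 of 15955 genes by p, adjusted p = 0.727). The Gstm2 difference stayed between -0.37 and -0.32 when each array was left out, and its p was under 0.05 in 15 of 16 alternatives.

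Gstm1 read 8.91, 8.80, 8.46 and 8.73, lower in both knockout arrays by a mean of 0.26 ± 0.10 (adjusted p = 0.751). Knockout array 1 was the lower one, and without it the difference was -0.13. Gstm5, a Mu-class gene known for its expression in testis and brain, went the other way. It read 9.0, 8.85, 9.17 and 9.06, with both knockout arrays above both wild-type arrays by a mean of 0.19 ± 0.07 (adjusted p = 0.739). The Gstm5 difference was 0.12 without wild-type array 2, 0.14 without knockout array 1 and 0.24 without knockout array 2, and its unadjusted p was under 0.05 in none of these. With local background subtracted it turned to -0.89.

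Gstm7 read 7.47, 7.26, 7.42 and 7.40, with overlapping groups and a difference of 0.05 ± 0.08 (adjusted p = 0.939). Gstm4 read 6.04, 6.11, 6.11 and 6.04, close above background at 1.12 times the limit, and did not separate the genotypes (adjusted p = 0.999). The neighbours outside the list also differed from each other. Gstm3 read 8.15, 8.20, 7.86 and 8.07, a difference of -0.21 ± 0.08 (adjusted p = 0.747). Gstm6 differed by 0.03 ± 0.10 (adjusted p = 0.97).

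The difference between Gstm2 and Gstm5 within each array was followed as well, on the same normalized log2 values. It was lower in the knockout by 0.53, with an SD of 0.08 between wild-type arrays and 0.11 between knockout arrays. This change follows from the differences of the 2 genes given above and is not separate evidence. The genes compared were chosen with results of these arrays known. The corresponding change of Gstm1 relative to Gstm5 was -0.45, and that of Gstm2 relative to Gstm1 was -0.08. Of the 3 changes, that between Gstm2 and Gstm1 was the smallest. With 2 arrays per group an exact permutation test (two-sided) of such values cannot give a p under 0.333.

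**Figure D3:**
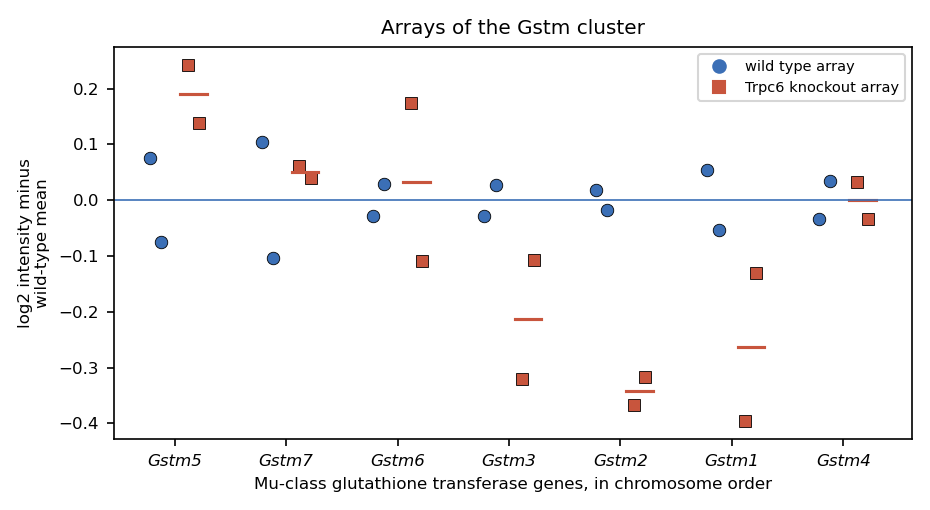
Log2 intensity of the Mu-class genes on each array, minus the wild-type mean of the gene (vertical axis), with genes in chromosome order (horizontal axis); circles are the 2 wild-type arrays, squares the 2 Trpc6 knockout arrays and short lines the knockout mean. Both knockout squares of Gstm3, Gstm2 and Gstm1 lie below the wild-type circles, with means of -0.21, -0.34 and -0.26, and both squares of Gstm5 lie above.

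Promoters were examined because NRF2 binds the antioxidant response element, whose core is TGACNNNGC. This core was looked for on both strands of RefSeq promoter windows of 300 bases, from 250 before to 50 after the annotated start, in GRCm38.p6. Of the 43 measured genes 36 had a window, and 10 of these held the core (27.8%), against 16% of the genes tested that had a window and 14% of all 27025 genes with one. Counted by window, 19.6% of the windows of these 36 genes held it. The share was 13.7% of the windows of genes tested and 12.4% of all 32851 windows. A match is a run of letters and shows no binding. Both sequences from the Mu-class cluster whose genes differed in opposite directions are given first, as the 250 bases before the start, with the core in capitals.

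Gstm5, chr3:107895604-107895853, plus strand: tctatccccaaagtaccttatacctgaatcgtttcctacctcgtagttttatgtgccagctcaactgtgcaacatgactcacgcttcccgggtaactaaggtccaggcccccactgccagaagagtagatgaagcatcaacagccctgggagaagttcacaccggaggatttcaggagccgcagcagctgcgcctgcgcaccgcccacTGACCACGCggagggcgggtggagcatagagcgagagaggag
Gstm2, chr3:107986421-107986670, minus strand: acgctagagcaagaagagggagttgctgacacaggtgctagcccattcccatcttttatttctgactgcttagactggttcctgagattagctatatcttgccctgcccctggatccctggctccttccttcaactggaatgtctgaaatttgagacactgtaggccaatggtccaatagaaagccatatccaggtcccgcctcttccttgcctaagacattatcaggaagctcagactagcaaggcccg

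The Gstm5 sequence holds the core 42 bases before the start, and the Gstm2 sequence holds none. The window of Gstm1 holds none either. Gstm7, whose groups overlapped, holds it 129 bases before the start. Mgst1, with lower intensity in both knockout arrays, holds it on the opposite strand 56 bases before the start.

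Mgst1, chr6:138140277-138140526, plus strand: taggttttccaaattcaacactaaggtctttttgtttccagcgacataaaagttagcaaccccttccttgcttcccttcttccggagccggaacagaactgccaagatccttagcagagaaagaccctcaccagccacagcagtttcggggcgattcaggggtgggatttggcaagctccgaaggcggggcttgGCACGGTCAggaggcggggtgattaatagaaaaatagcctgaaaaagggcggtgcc

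The remaining matches before a start are shown as 21-base stretches on the gene's strand with the core, or its reverse complement, in capitals, so that the variable middle bases can be compared.

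Nfe2l2, chr2:75704889-75704909, minus strand: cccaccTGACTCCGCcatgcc
Gclm, chr3:122245417-122245437, plus strand: ccgggcGCACCGTCAactctc
Prdx1, chr4:116685460-116685480, plus strand: gaaagcGCTGAGTCAtccccc
Txnrd1, chr10:82859108-82859128, plus strand: atttttGCTTTGTCAttctga
Sod1, chr16:90220700-90220720, plus strand: aggtggGCGTGGTCAgactca
Gsta3, chr1:21240458-21240478, plus strand: caggcaTGACATTGCattttt
Gstm7, chr3:107931729-107931749, minus strand: aagaccTGACAAAGCgaagcc

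Of the genes with the core, Mgst1 and Nfe2l2 (-0.012) were lower, and the others, with Gstm7 at 0.05, were higher. Among all 43 measured genes 24 were higher and 19 lower, and the split by core was not tested. Of the 10, Gstm5 and Mgst1 had an unadjusted p under 0.05, in opposite directions, and Gclm, Prdx1, Txnrd1, Sod1 and Gsta3 differed by 0.12, 0.0070, 0.12, 0.05 and 0.34. The 10th, Srxn1, holds it 28 bases after the start and differed by 0.03.

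Other genes of the same metabolism were counted from a list of 70, of which 63 were kept. Among them 38 were higher and 25 lower, and 4 had an unadjusted p under 0.05 (6.35%, against 6.74% of all genes). The groups did not overlap in 25 of the 63 (39.7%, against 36.8% of all genes). Aox1, an aldehyde oxidase, read 7.79, 7.87, 7.61 and 7.57, lower in both knockout arrays by a mean of 0.24 ± 0.05. Ccs, the chaperone that loads copper onto SOD1, read 7.21, 7.20, 7.50 and 7.34 and was higher by 0.22 ± 0.07, while Sod1 itself differed by 0.05. Ggct, which breaks down gamma-glutamyl amino acids in the glutathione cycle, differed by -0.23 ± 0.08, and the thioredoxin-like Txnl1 by 0.10 ± 0.04. The adjusted p was 0.727 for each of these 4.

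**Figure D4:**
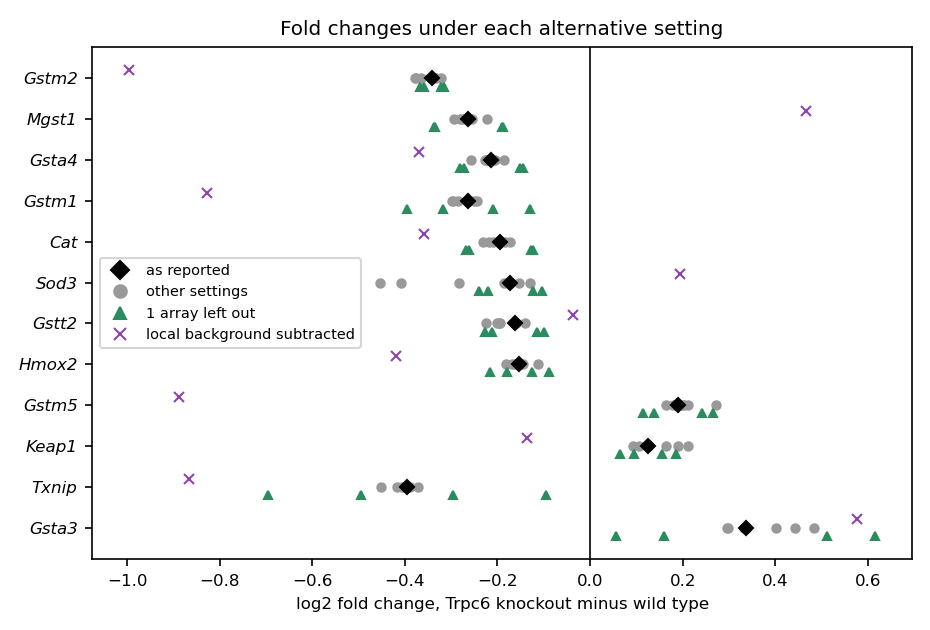
Log2 difference between Trpc6 knockout and wild type (horizontal axis) for 12 genes under the reported setting (diamonds), other processing settings (circles), with 1 array left out (triangles) and with local background subtracted (crosses). Gstm2 stays on the lower side in every setting shown, from -0.995 to -0.32, while subtraction of local background turns Gstm5, Mgst1, Sod3 and Keap1 among the 12 genes plotted.

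The order of these genes by how they held up under other settings was not that of their size. The sign was the same in all 16 alternatives for 13 of the 43 genes, among them Gstm2, Gstm1, Gsta4, Gstt2, Cat and Hmox2. Not all 16 could turn a sign. The filter, variance model, probe choice and replicate block leave the difference of a gene with a single probe unchanged. Where groups do not overlap, as in these named genes, leaving out an array cannot turn the sign either. For Gstm1 the alternatives gave -0.83 to -0.13, and for Gsta4 -0.37 to -0.15. Leaving out 1 array turned the sign of 22 genes, and subtracting the local background turned 18.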

How the data were processed

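The scanner files deposited by the authors hold, per the file headers, the median intensity of each of 27456 spots and of its local background at 635 nm. A table of intensity processed by the authors was deposited too. Set against the scanner values, each column was a straight line of the spot medians, with 78.4 to 87.7 units subtracted and a column median of 25, and it served as an alternative. Symbols came from the platform annotation (20690 probes with 1 symbol, none with several, 2783 with none).

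Spot medians were corrected with normexp (offset 50) in limma 3.58.1 under R 4.3.3, without subtracting local background, which correlated with the spots at 0.931 to 0.967. Spots were averaged per probe and log2 values quantile normalized. Genes were kept when above the 95th percentile of blank and negative control spots on at least 2 arrays, and the brightest probe stood for a gene. Srxn1 alone of the listed genes had 2 probes. Groups were compared with lmFit and eBayes (two-sided, 2 residual and 2.49 prior degrees of freedom) and Benjamini-Hochberg adjustment over 15955 genes. The procedure was tested on simulated data with planted changes larger than any reported for the listed genes, so changes of their size were not tried. The number of arrays limits the precision, and the offset shrinks differences of dim probes.

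The genes, lists and settings were chosen with earlier results of these data known. All listed genes are named. Values per array are given for those without overlap and at least 0.1 apart, for the Gstm genes and for 12 central genes whatever their values, of which Gpx1 had no probe. The 16 alternatives changed background, scaling, filter, probe choice, source or variance model, added the replicate number or left out an array. No paired design was stated: the replicate deviations of the groups correlated at 0.0967. No slide or date was used.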

Additional observations from a re-analysis of the deposited data

How the results depend on the processing

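No gene passed an adjusted p of 0.05 in limma under the 16 alternatives, except that leaving out each array in turn gave 0 to 1 genes, the 1 being the haemoglobin gene Hba-a2 without wild-type array 2 (adjusted p 0.0487). The genes at an unadjusted p under 0.05 numbered 1076, and 444 (without knockout array 2) to 2344 (without wild-type array 1) when arrays were left out. Listed genes at that threshold numbered 4 as reported, 1 with a normexp offset of 0, 9 with local background subtracted, 2 in the authors' table (Hmox2 and Sod3), 7 with the replicate number as a block (Cat, Gsta3 and Gstt2 added), and 4 to 12 when arrays were left out, the most without wild-type array 1 and 7 without wild-type array 2. The other 8 alternatives gave 3 to 6. The median difference of the listed genes, 0.0070, was 0.060 in the authors' table and -0.039 to 0.054 when arrays were left out, the highest without knockout array 2. With local background subtracted, the SD of the differences over the listed genes was 0.55, against 0.144 as reported. In that setting Gpx4 stood at -2.10, Txn2 at 0.97, Txnrd1 at 0.81, Gsto1 at 0.75 and Sod2 at 0.63. There Gstm5 turned to -0.89 and Mgst1 to 0.47, and the cause was not tested. Of the genes at an unadjusted p under 0.05, 45.6% were lower as reported, 63.0% with median scaling and 70.9% in the authors' table. The replicate block changed no adjusted call. Leaving out an array leaves a lone sample that is assumed to vary like the other group. The planned scan-batch setting was not run. There were 2 arrays per group, and the typical probe read close above the blank spots.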
